A study of Mus musculus with 6 samples.

Results

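The 10 genes described here encode heat shock proteins and chaperones, and they were chosen by symbol from 53546 gene symbols measured in single cells of the mouse proximal pulmonary artery (PA). They are Hspa1a and Hspa1b, which encode the stress-inducible HSP70; Hspa8, which encodes its constitutive relative; Hsph1, which encodes the HSP110 nucleotide exchange factor; Dnajb1 and Dnaja1, which encode J proteins that deliver clients to HSP70; Hsp90aa1, which encodes inducible cytosolic HSP90; Hspb1, which encodes a small heat shock protein; and Hspd1 and Hspe1, which encode the mitochondrial chaperonin HSP60 and its lid HSP10. Every library came from the proximal PA of wild-type C57BL/6J mice, cut out together with surrounding tissue, chopped and digested with collagenase and elastase before droplet barcoding. The young group held 2 libraries from mice of 3 months. The old group held 4 libraries, replicates 1 to 4, from mice of 20, 24, 28 and 27 months. By the study's account each library came from a separate mouse, the old mouse of 28 months being female and the other old mice male. The young mice were of both sexes, and a further young mouse that the study names was not analysed here. Old mice came partly from a separate aging colony, so colony and age cannot be told apart here.

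Chaperones bind unfolded or aggregation-prone proteins. HSP70 works in an ATP cycle that J proteins start and HSP110 resets, HSP90 acts on partly folded kinases and receptors, small heat shock proteins hold unfolding proteins without ATP, and HSP60 with HSP10 encloses mitochondrial proteins. When unfolded protein accumulates, heat shock factor 1 trimerizes and binds heat shock elements, inverted repeats of the letters GAA, in front of the inducible genes. In vascular smooth muscle the small heat shock proteins are abundant and bind the contractile apparatus. Heat shock and immediate early genes are also known to respond to enzymatic tissue dissociation, which all libraries underwent.

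Promoter sequences were at hand for 8 of the 10 genes, in RefSeq windows on GRCm38.p6 that reach from 250 bases before a transcript start to 50 bases after it; Hsp90aa1 and Hspa8 had none. Over the 250 bases before the start, the letters GAANNTTC and TTCNNGAA were searched. Both read the same on either strand, and a match of each can overlap the other. Of 32851 windows of all genes, 6.69% held GAANNTTC and 7.17% held TTCNNGAA there, and 12.8% held at least one of them. Of the members, 7 of 8 had a window with a match, and counted by window, as for all genes, 8 of 13 held one. The window of Hspb1 held 2 matches and that of Hspe1 held 3, whereas neither window of Dnajb1 held any. Dnaja1 had a match in only 1 of its windows. The stretches are shown because those of the pair of Hspa1 genes are nearly the same and because the others carry the matches, which are in capitals. Hspa1a and Hspa1b are shown over chr17:34972157-34972306 and chr17:34959239-34959388, both on the minus strand, and Hspb1 over chr5:135887769-135887918 on the plus strand. Only the surroundings of the match are shown for Hsph1 (chr5:149636351-149636380, minus strand), Dnaja1 (chr4:40722333-40722362, plus strand) and Hspe1 (chr1:55088054-55088083, plus strand).
Hspa1a: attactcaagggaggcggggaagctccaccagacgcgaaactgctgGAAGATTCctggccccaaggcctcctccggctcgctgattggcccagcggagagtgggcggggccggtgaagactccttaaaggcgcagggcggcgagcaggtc
Hspa1b: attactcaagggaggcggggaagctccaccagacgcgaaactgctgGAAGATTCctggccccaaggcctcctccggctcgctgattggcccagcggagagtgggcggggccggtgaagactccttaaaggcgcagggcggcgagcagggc
Hspb1: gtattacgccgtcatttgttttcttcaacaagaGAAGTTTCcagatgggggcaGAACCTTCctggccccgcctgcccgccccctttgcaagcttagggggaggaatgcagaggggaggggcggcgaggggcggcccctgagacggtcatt
Hsph1: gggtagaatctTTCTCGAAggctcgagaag
Dnaja1: aaaagcctctaGAAAATTCtacgaggctcg
Hspe1: gtccgTTCTAGAACCTTCCGGAAggccccg
The upstream stretches of Hspa1a and Hspa1b were identical at 247 of 250 bases. The Hspe1 window and a window of Hspd1, which lies on the minus strand, overlapped by 285 of 300 bases, so the run of 3 matches stands upstream of both starts. Hspd1 has another RefSeq start on the far side of the run, whose window held no match, and the run lies within an annotated exon of an Hspd1 transcript. The stretch shown for Hsph1 likewise overlaps an annotated exon of Hsph1, and that for Dnaja1 overlaps exons of Dnaja1 and Gm6297. A match is a description of the letters and not evidence of binding. The transcripts of Hspa1a and Hspa1b were not compared here, so how well UMIs are split between them is uncertain, and their values are given side by side.

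Libraries held 6355125 to 50436562 unique molecular identifiers (UMIs, each counting a captured transcript molecule), and 935 to 4067 barcodes passed the limits of 500 UMIs, 300 genes and 20% mitochondrial UMIs. Cells were clustered without the 100 listed chaperone genes, and clusters were called fibroblast-like (FB-like), smooth muscle-like (SMC-like), endothelial-like (EC-like, blood), macrophage-like (MΦ-like), B-like and so on from marker genes. Young replicates 1 and 2 and old replicate 2 shared 131 to 215 barcodes pairwise, against at most 1.15 from chance; every other pair shared at most 4. Old replicate 1, a male by the study's account, held 2411 UMIs of Xist beside 209 of Ddx3y and 2 of Eif2s3y, which goes against that sex. Young replicate 1 held 150 UMIs of Xist and 314 of Ddx3y, and young replicate 2 held 942 and 11. UMIs were added up over the cells of a type in a library, and levels are given as CPM, the share of that sum scaled to a fixed total. A level of 0 in young replicate 2 rests on few UMIs: there, 3 UMIs would be 143 CPM in FB-like, 131 CPM in SMC-like, 138 CPM in MΦ-like and 207 CPM in B-like cells, so such a 0 does not show absence.

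Hspb1 showed the widest differences between cell types. In SMC-like cells its level was 1171 and 743 CPM in young replicates 1 and 2 and 1635, 403 and 481 CPM in old replicates 1, 3 and 4, old replicate 2 having too few SMC-like cells to enter. In MΦ-like cells it was 12.0 and 0 CPM in young replicates 1 and 2 and 2.94, 9.35, 12.1 and 35.5 CPM in old replicates 1 to 4. The groups of SMC-like and MΦ-like libraries did not overlap, and in each of 5 libraries SMC-like cells were above FB-like, EC-like and MΦ-like cells. Mesothelial-like cells, from the lining of the tissue around the artery, had levels of the same order (567 to 1786 CPM over 5 libraries), and SMC-like cells were the higher in 1 of the 4 libraries that held both. Airway epithelial-like cells averaged 337 CPM, EC-like cells 275 CPM and FB-like cells 192 CPM, with overlapping ranges, and B-like cells 11.4 CPM. The RNA in barcodes under 100 UMIs, taken as free RNA, held 43.3 to 221 CPM of Hspb1, above the level in MΦ-like and B-like cells in every library. After each cell was thinned to 500 UMIs, 16.6% to 45.3% of SMC-like cells held a UMI of Hspb1 (39.4% to 89.9% unthinned), against 0% to 1.69% of MΦ-like cells (0% to 10.6% unthinned); median depths before thinning were 644 to 9336 and 630 to 5828 UMIs.

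**Figure D1:**
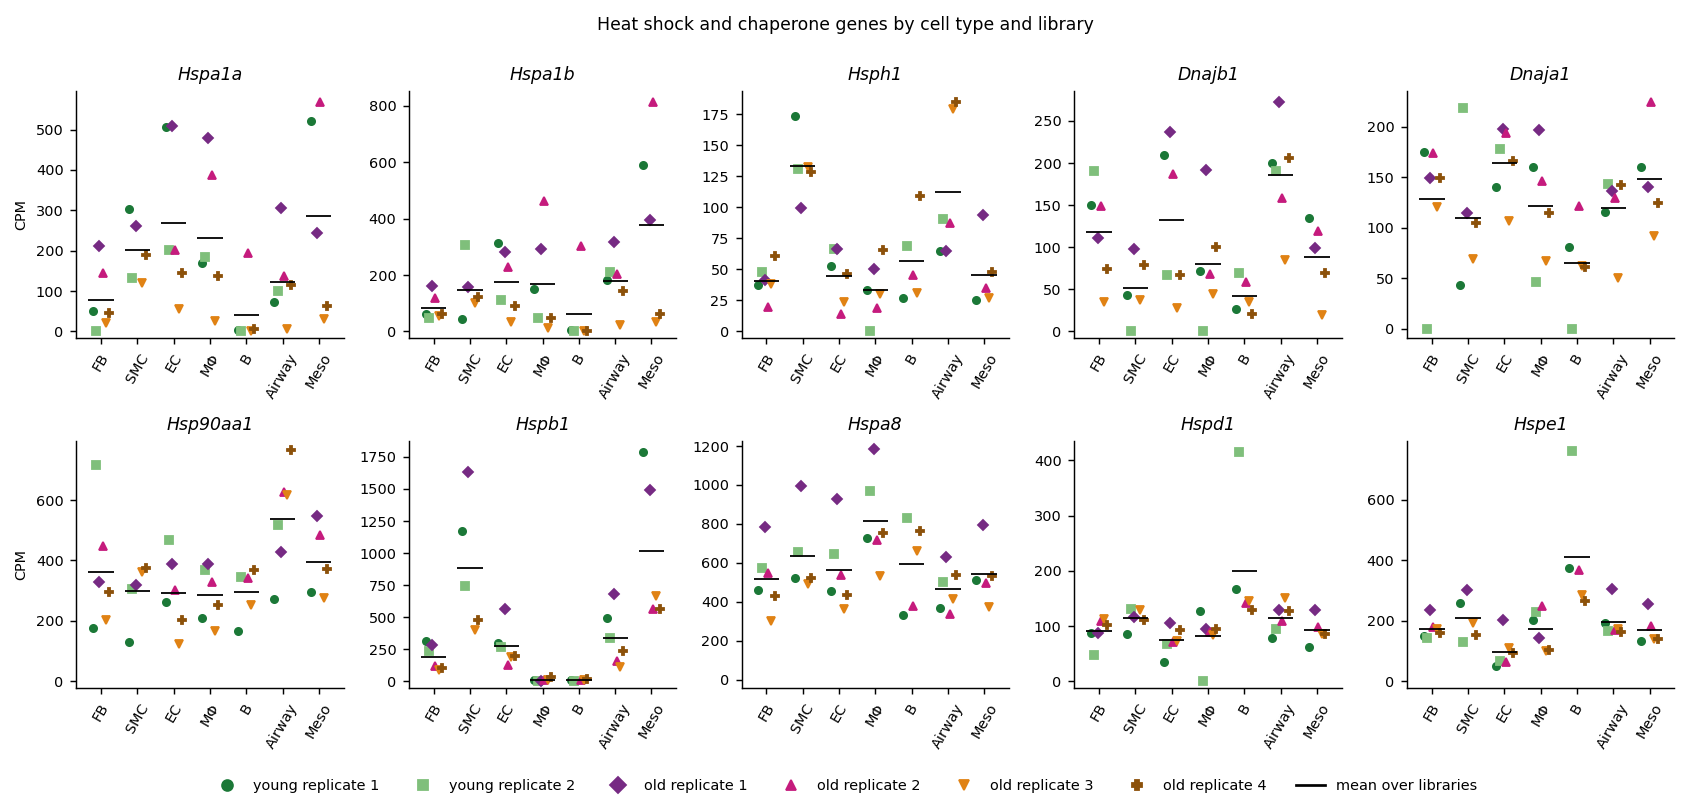
Level of each of the 10 genes in CPM (linear axes, a separate scale for each gene) in 7 cell types; each point is a library and the black bar is the mean over libraries. Hspb1 stands high in SMC-like and mesothelial-like cells and near 0 in MΦ-like and B-like cells, and Hspd1 and Hspe1 have their highest means in B-like cells.

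The comparison of FB-like, SMC-like, EC-like and MΦ-like cells asks in which cells of the arterial wall each chaperone gene was highest. Each type was set against the mean of the other 3 with library as a block, by edgeR's quasi-likelihood test with Benjamini-Hochberg adjustment over 11107 genes. Among all genes tested, 29.9% passed an adjusted p of 0.05 in FB-like, 40.8% in SMC-like, 33.6% in EC-like and 48.7% in MΦ-like cells, in either direction. Of the 10 members, 1, 3, 4 and 2 passed, so the members' shares were below those of all genes except in EC-like cells, where 4 of 10 stood beside 33.6%. The medians of the members' log2 differences were 0.01 in FB-like, 0.50 in SMC-like, -0.28 in EC-like and 0.15 in MΦ-like cells, beside medians over all genes of -0.02, 0.03, -0.20 and 0.07.

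In SMC-like cells Hspb1 was 2.93 ± 0.28 (log2 difference ± SE) above the other wall types (adjusted p = 2.3e-10). Hsph1 was 1.58 ± 0.22 above them (adjusted p = 2.71e-07). Its level was 173 and 131 CPM in young replicates 1 and 2, on 4 and 3 UMIs, and 99.6, 133 and 129 CPM in old replicates 1, 3 and 4. In each of these 5 libraries it was above the level in FB-like, EC-like and MΦ-like cells of the same library. The order in the young rests on few UMIs, as these other types held 3, 3 and 14 in young replicate 1 and 1, 3 and 0 in young replicate 2. Those 3 types had means of 40.9, 45.1 and 33.1 CPM. Airway epithelial-like cells had a mean of 112 CPM of Hsph1, and SMC-like cells were the higher in 3 of 5 libraries. Hspa1a was 0.88 ± 0.29 above the other wall types in SMC-like cells (adjusted p = 0.0167), yet in single libraries it was above EC-like cells in only 2 of 5. Without old replicate 3 the difference was 0.44 (adjusted p = 0.354), without old replicate 4 it was 0.71 (adjusted p = 0.154) and without young replicate 2 it was 0.83 (adjusted p = 0.0533). Without the library block it was 0.14 (adjusted p = 0.928). Hspa1a in SMC-like cells kept its call in 6 of 12 alternatives.

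In MΦ-like cells Hspb1 was lower than in the other wall types by a log2 difference of -3.84 ± 0.37 (adjusted p = 2.21e-10). Hspa8 was 0.76 ± 0.19 higher (adjusted p = 7.57e-04), with levels of 729 and 968 CPM in young replicates 1 and 2 and 1183, 720, 533 and 756 CPM in old replicates 1 to 4. In every library MΦ-like cells were above FB-like and EC-like cells of that library, in 6 of 6, and above SMC-like cells in 5 of 5, although the ranges over libraries overlapped. Outside the wall types, they were above B-like cells in 3 of 5 libraries. Monocyte or dendritic-like cells held 801 and 1004 CPM in old replicates 3 and 4. T, NK or innate lymphoid-like cells held 474 to 1449 CPM over 5 libraries. Without the library block the Hspa8 difference was 0.71 (adjusted p = 0.0858).

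In FB-like cells Hspa1a was lower by a log2 difference of -1.59 ± 0.31 (adjusted p = 9.62e-05), and without the library block that difference was -1.35 (adjusted p = 0.182). Its level in FB-like cells was 50.01 and 0 CPM in young replicates 1 and 2 and 211, 144, 20.9 and 44.4 CPM in old replicates 1 to 4. Free RNA held 23.5 to 170 CPM of Hspa1a, and FB-like cells exceeded it in 3 of 6 libraries. Hspa1b in FB-like cells differed by -0.65 ± 0.41 (adjusted p = 0.271).

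In EC-like cells Hspe1 was lower by -1.01 ± 0.24 (adjusted p = 0.00124). Over 12 alternatives its difference ran from -1.74 to -0.47, and the call was lost with at least 1000 UMIs and 500 genes per cell (adjusted p = 0.0952) and in the libraries that share no barcodes (adjusted p = 0.0582). Hsph1 was lower by -0.80 ± 0.25 (adjusted p = 0.0104) and Hspd1 by -0.61 ± 0.23 (adjusted p = 0.0362), whereas Hspb1 was higher by 0.76 ± 0.28 (adjusted p = 0.0328). Without scaling by TMM factors, the median of all genes in EC-like cells moved from -0.20 to 0.09 and the share of calls that were higher moved from 41.1% to 63.8%; relative to that median, Hspe1 differed by -0.81 in both fits, Hsph1 by -0.61 and -0.62 and Hspd1 by -0.41 in both. In MΦ-like cells the same change moved the median from 0.07 to -0.15 and the share of higher calls from 55.6% to 43.7%. On their own scale Hsph1 and Hspd1 in EC-like cells were not called without TMM factors (adjusted p = 0.0944 and 0.252). Hspd1 in EC-like cells lost its call when any library was left out. Hsph1 lost it without old replicate 3 (adjusted p = 0.446) or old replicate 4 (adjusted p = 0.335). Hspb1 lost it without young replicate 1 (adjusted p = 0.0552) or old replicate 3 (adjusted p = 0.0796). Over all alternatives fitted for each, Hspd1 kept its call in 0 of 12, Hsph1 in 5 of 11 and Hspb1 in 6 of 12. The level of Hspe1 was 52.5 and 66.9 CPM in young replicates 1 and 2 and 204, 64.7, 112 and 92.6 CPM in old replicates 1 to 4, and EC-like cells exceeded free RNA in 4 of 6 libraries.

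**Figure D2:**
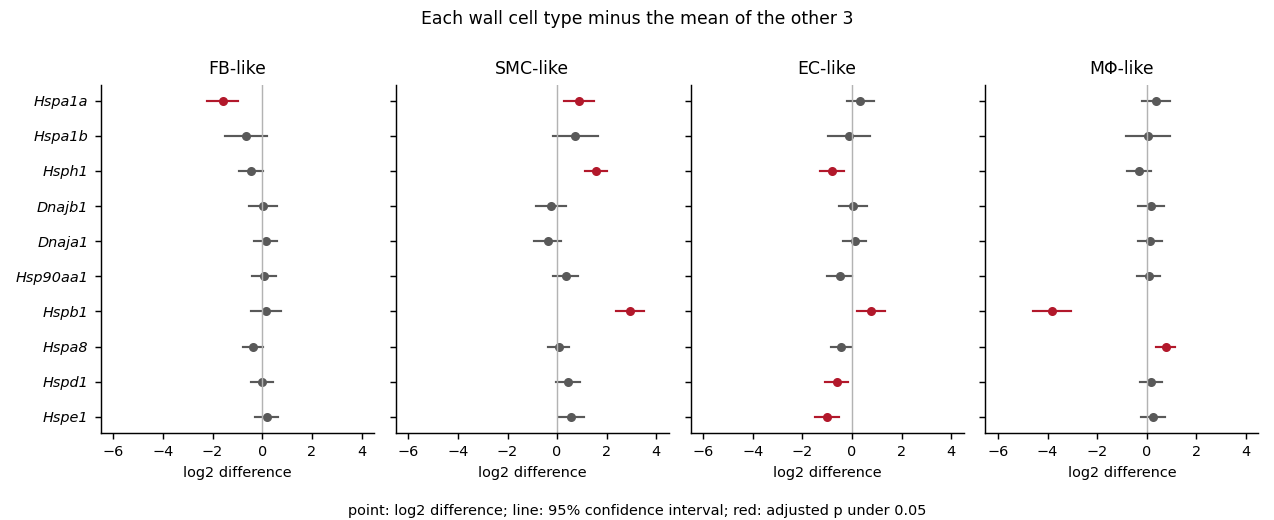
Log2 difference of each gene in a wall cell type from the mean of the other 3 (points) with its 95% confidence interval (lines) from the edgeR fit with library as a block; red marks an adjusted p under 0.05. Hspb1 lies at 2.93 in SMC-like and -3.84 in MΦ-like cells, and most other members lie within 1 of 0.

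The related genes of the pathway were counted by the same test. Among all genes tested, 17.2% were called higher and 12.7% lower in FB-like cells, 22.1% and 18.7% in SMC-like, 13.8% and 19.8% in EC-like, and 27.1% and 21.6% in MΦ-like cells. Of 6 other tested genes that were listed as small heat shock protein genes, 6 were higher in SMC-like cells. On the log2 scale Hspb7 was higher by 7.25, Hspb2 by 5.95, Hspb6 by 5.76, Cryab by 3.80, Hspb8 by 2.75 and Hspb11 by 0.59. The median of that list was 4.78 in SMC-like cells and -3.15 in MΦ-like cells, where 5 of 6 were lower, as were 5 of 6 in EC-like cells. Without TMM factors 5 of 6 were called higher in SMC-like cells, the call of Hspb11 being lost, 4 of 6 lower in EC-like and 5 of 6 lower in MΦ-like cells. The TRiC chaperonin, which folds actin and tubulin, had 3 of 8 subunit genes called in SMC-like cells, Cct7 (0.76), Tcp1 (0.71) and Cct6a (0.53), a share near the 40.8% of all genes called there; without TMM factors 2 of 8 were called. None of the 8 passed in FB-like cells and 1 each, Cct5, in EC-like (-0.94) and MΦ-like cells (0.76). Of 15 endoplasmic reticulum chaperone genes, 11 were higher in FB-like cells, with a median of 0.64; among them Serpinh1, the collagen chaperone, was 3.17 higher, Sdf2l1 1.11 and Hyou1 0.93. In SMC-like cells 8 passed, of which 1, again Serpinh1 (1.99), was higher; 1 passed in EC-like and 5 in MΦ-like cells.

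Of 16 other J protein genes, 5 passed in FB-like, 7 in SMC-like, 4 in EC-like and 8 in MΦ-like cells, beside the 29.9%, 40.8%, 33.6% and 48.7% of all genes given above. In SMC-like cells 4 of the 7 were higher, Dnajb5 (2.30), Dnajb4 (1.95), Dnajb2 (1.17) and Dnaja4 (1.15), and the rest were lower. The list median there was -0.07. Those 4 genes were lower in MΦ-like cells, Dnaja4 by a log2 difference of -2.29. Another 4 of the 8 that passed in MΦ-like cells were higher, and the list median there was 0.23. Of 15 other HSP90 and co-chaperone genes, 6 passed in EC-like cells and each was lower, with a median of -0.39; Ahsa1, the HSP90 ATPase activator, was at -1.07 and Fkbp4 at -0.82. Without TMM factors 3 of the 15 were called lower and 1 higher in EC-like cells, with a median of -0.13. Of the same 15, 2 passed in FB-like, 5 in SMC-like and 4 in MΦ-like cells, and Unc45a, a myosin chaperone, was 2.11 higher in SMC-like cells. Of 7 other HSP70 and HSP110 genes, 3, 3, 1 and 4 passed in FB-like, SMC-like, EC-like and MΦ-like cells; the gene in EC-like cells was Hspa12b, 4.17 higher. Of 8 other mitochondrial chaperone genes, 0 passed in FB-like cells by edgeR (1 had an unadjusted p under 0.05), 3 in SMC-like and 1 each in EC-like and MΦ-like cells, and Grpel1 (0.95), Clpp (0.94) and Clpb (0.72) were the 3 in SMC-like cells, all higher. Of 12 tested regulators and cofactors of the heat shock response, 3 passed in FB-like, 1 in SMC-like, 2 in EC-like and 2 in MΦ-like cells; the gene in SMC-like cells was Stub1, which encodes a ubiquitin ligase that binds HSP70 and was 0.74 higher. Hsf1, the master regulator, was 0.46 ± 0.25 higher in SMC-like cells (adjusted p = 0.136). The list medians given here stand beside medians over all genes between -0.20 and 0.07.

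Hspd1 and Hspe1 had their highest means in B-like cells, from 5 libraries. Hspe1 was at 376 and 760 CPM in young replicates 1 and 2 and at 367, 285 and 266 CPM in old replicates 2, 3 and 4. Hspd1 was at 168 and 415 CPM in the young and at 141, 146 and 129 CPM in those old libraries. The next types for Hspe1 were the T, NK or innate lymphoid-like cells (mean 324 CPM, 213 to 403, 5 libraries), monocyte or dendritic-like cells (267 and 217 CPM in the 2 libraries that held them) and SMC-like cells (208 CPM, 131 to 303), whose ranges overlapped with that of the B-like cells, and no test was made. Blood EC-like cells were at 98.7 CPM. The high young replicate 2 value of B-like cells rests on 23 cells and 14466 UMIs.

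Dnajb1 and Hsp90aa1 had their highest means in airway epithelial-like cells, at 185 and 538 CPM over 6 libraries. For Dnajb1 the range there was 85.1 to 272 CPM, overlapping with EC-like (27.7 to 237 CPM) and FB-like cells (35.3 to 191 CPM). Within single libraries airway epithelial-like cells held more Dnajb1 than MΦ-like cells in 6 of 6, SMC-like and B-like cells in 5 of 5, FB-like cells in 5 of 6 and EC-like cells in 4 of 6. For Hsp90aa1 the range was 273 to 764 CPM and overlapped with every other fitted type. Compared within libraries, however, airway epithelial-like cells were above EC-like and MΦ-like cells in 6 of 6, above SMC-like and B-like cells in 5 of 5 and above FB-like cells in 5 of 6. They were above mesothelial-like cells, which held 275 to 546 CPM of Hsp90aa1, in only 3 of 5. No test was made of these orders. Means of Dnaja1 in the fitted types ran from 65.2 CPM in B-like to 164 CPM in EC-like cells. In the wall comparison none of these 3 genes passed in any type by edgeR, and none had an unadjusted p under 0.05; the closest was Hsp90aa1 in EC-like cells at -0.49 ± 0.24 (adjusted p = 0.12).

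The comparison of old with young asks whether chaperone transcripts changed with age in each cell type. It was made by edgeR's quasi-likelihood test in 6 types, with 2 young against 4 old libraries, or 2 against 3 for SMC-like and B-like cells. In SMC-like cells both young libraries belong to the set that shares barcodes, and no old library that entered does. That set and age therefore cannot be told apart in SMC-like cells. In the other types old replicate 2 is the only old library in the set. No member passed an adjusted p of 0.05 in any type, nor an unadjusted p of 0.05 with a fold change over 2, which is the rule in the study's methods; 0 had an unadjusted p under 0.05 by edgeR, and DESeq2 called 0 and likewise had 0 with an unadjusted p under 0.05. Members tested were 10 in FB-like, SMC-like, EC-like and airway epithelial-like cells, 9 in MΦ-like cells, where Hspb1 was too rare, and 5 in B-like cells. Of all genes, the adjusted threshold was passed by 0.0441% in FB-like cells and by 0% in the other 5 types. The unadjusted rule was passed by 6.24% in FB-like, 7.99% in SMC-like, 5.61% in EC-like, 4.63% in MΦ-like, 6.48% in B-like and 4.62% in airway epithelial-like cells, so the members' 0 is read against low shares. A difference could also go unseen at this depth: young replicate 2 gave 20929 UMIs of FB-like, 22880 of SMC-like and 21705 of MΦ-like cells, and the intervals below span several fold.

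Cells of a type were spread unevenly over clusters, by library as well as by age group. A single FB-like cluster held 94.2% of the young FB-like cells and 25.0% of the old, and for SMC-like cells the shares were 89.8% and 11.5%, for EC-like 97.3% and 50.4%, for MΦ-like 98.2% and 32.3%, for B-like 96.0% and 7.14%, and for airway epithelial-like cells 42.3% and 34.9%. The old libraries differed: that FB-like cluster held 129 of 133 FB-like cells of old replicate 1 and 197 of 216 of old replicate 2, but 56 of 815 of old replicate 3 and 32 of 494 of old replicate 4. For EC-like cells the counts were 664 of 670, 194 of 198, 85 of 798 and 44 of 292 in old replicates 1 to 4. Median UMIs per cell differed alongside, from 663 and 856 in young to between 847 and 6375 in old FB-like cells. The part of cluster and depth in the comparison was not tested by the main fit, and the values within these clusters and after thinning are among the alternatives.

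The medians of the members' old minus young log2 differences were 0.22 in FB-like, 0.40 in SMC-like, -0.07 in EC-like, 0.27 in MΦ-like, 0.23 in B-like and 0.03 in airway epithelial-like cells, beside medians over all genes of 0.20, 0.49, 0.12, 0.21, 0.08 and 0.02. Without TMM factors the all-gene median in SMC-like cells moved from 0.49 to 0.09, and in airway epithelial-like cells from 0.02 to 0.19.

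In FB-like cells the smallest p among members was that of Hspb1. It was at 313 and 239 CPM in young replicates 1 and 2 and at 283, 119, 89.0 and 107 CPM in old replicates 1 to 4, so 3 of the 4 old libraries were below both young ones and the groups overlapped. The log2 difference was -0.86 ± 0.58 (95% interval -2.08 to 0.36, adjusted p = 0.824). Without old replicate 1 it was -1.36 and had an unadjusted p under 0.05 (adjusted p = 0.542). Hspd1 in the same cells was at 87.5 and 47.8 CPM in young replicates 1 and 2, on 7 and 1 UMIs. It was at 87.6, 109, 112 and 103 CPM in old replicates 1 to 4, each old library at or above both young ones. The difference was 0.43 ± 0.58 (-0.78 to 1.64, adjusted p = 0.958). Dnajb1 was at 150 and 191 CPM in young, on 12 and 4 UMIs, and 111, 149, 35.3 and 73.9 CPM in old, all 4 old libraries below both young ones. Its difference was -0.82 ± 0.67 (-2.24 to 0.59, adjusted p = 0.871). The share of all genes whose age groups separate was not counted, so such orders of a few libraries, here and below, are only a description.

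In SMC-like cells Hsp90aa1 was at 130 and 306 CPM in young, on 3 and 7 UMIs, and at 320, 361 and 375 CPM in old replicates 1, 3 and 4. The groups did not overlap, and the difference was 1.06 ± 0.66 (-0.33 to 2.45, adjusted p = 0.655), relative to a median of 0.49 over all genes. For Dnajb1 in SMC-like cells the 2 young libraries held 1 UMI in 45939, so the ratio of summed CPM, old over young, was 3.23 with a 95% counting interval of 0.578 to 128. Counting intervals cover counting error only. Hspb1 in SMC-like cells differed by 0.30 ± 0.72 (-1.21 to 1.82) and Hsph1 by 0.03 ± 0.67 (-1.36 to 1.42), relative to the same median of 0.49. In CPM, Hspb1 in old replicates 3 and 4 (403 and 481) was below both young libraries (1171 and 743). Old replicate 1 was above both (1635).

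In EC-like cells Hspe1 was lowest in the young and old replicate 2 libraries, whose values were given above, and differed by 1.05 ± 0.71 (-0.48 to 2.57, adjusted p = 0.923). Hspd1 was at 35.0 and 66.9 CPM in young, on 2 and 3 UMIs, and 106, 71.8, 72.9 and 92.6 CPM in old replicates 1 to 4. All 4 were above both young libraries, with a difference of 0.80 ± 0.63 (-0.55 to 2.15, adjusted p = 0.928). Hspa1a went the other way in value (-0.60 ± 0.85, -2.50 to 1.31, adjusted p = 0.97). In MΦ-like cells Dnajb1 had the smallest p, with 71.9 and 0 CPM in young, 191, 68.5, 44.6 and 101 CPM in old and a difference of 0.87 ± 0.82 (-0.93 to 2.66, adjusted p = 0.927). In B-like cells it was Hspd1, at -0.69 ± 0.57 (-1.88 to 0.51, adjusted p = 0.845), and every old B-like library was below both young ones. In airway epithelial-like cells it was Hsph1, at 0.50 ± 0.39 (-0.36 to 1.36, adjusted p = 0.812). Hspa8, the constitutive HSP70, differed by 0.62 ± 0.65 in SMC-like (95% interval -0.74 to 1.99), 0.28 ± 0.57 in B-like, 0.13 ± 0.51 in FB-like, 0.08 ± 0.55 in EC-like, 0.14 ± 0.62 in MΦ-like and 0.00 ± 0.43 in airway epithelial-like cells, with no call in any of the 6. The SMC-like value stands beside a median of 0.49 over all genes.

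**Figure D3:**
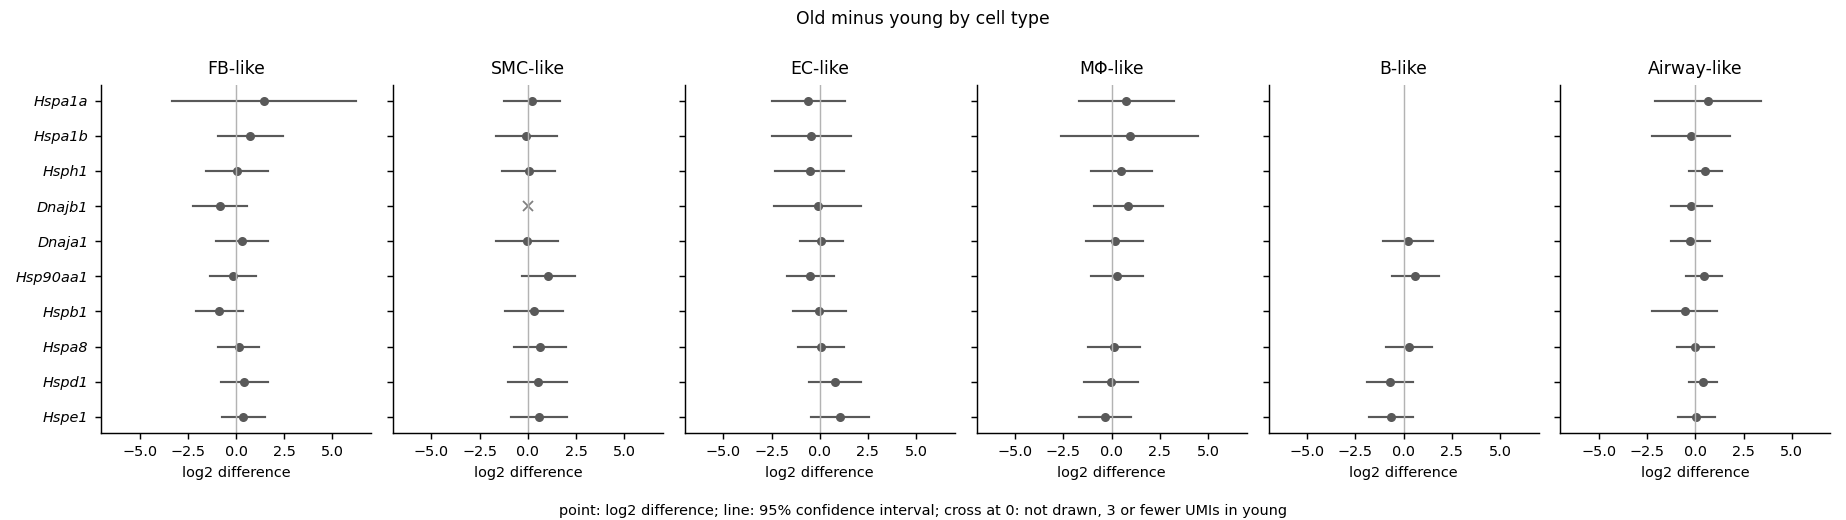
Old minus young log2 difference of each gene (points) with its 95% confidence interval (lines) from the edgeR fit in each of 6 cell types; the cross marks Dnajb1 in SMC-like cells, where the young libraries held 1 UMI and no difference is drawn, and genes too rare to test are left blank. Every interval includes 0.

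Among the related lists no gene passed the adjusted threshold with age, and 20 of 507 gene-by-type results, or 3.94%, had an unadjusted p under 0.05 (edgeR), beside 6.2% of all gene-by-type results. The share of the lists was thus below that of all genes, and the values that follow are a description. In EC-like cells 3 of 8 TRiC subunit genes were among them, on very few young molecules. Cct2 held 2 young UMIs, for a ratio of summed CPM, old over young, of 5.62 (95% counting interval 1.55 to 46.5). Cct8 held 2 (ratio 4.05, 1.11 to 33.5) and Cct4 held 3 (ratio 2.90, 0.986 to 14.1). Dnajb2, a J protein gene, held 0 young UMIs in EC-like cells and 7.18 to 29.5 CPM in the old libraries. Over the young EC-like libraries 3 UMIs would be 29.4 CPM, and the summed old level of Dnajb2 was 0.90 times that value. Its 0 therefore does not show a difference. Only among related genes with an unadjusted p under 0.05, those with the largest differences by type were the following. In FB-like cells they were Dnajc3 (1.43, adjusted p = 0.705) and Hsp90b1 (1.12, adjusted p = 0.73), both of the endoplasmic reticulum, and in MΦ-like cells Pdia4 (-1.44, adjusted p = 0.925). In SMC-like cells they were Bag1, Clpx and Ppid (adjusted p = 0.603 for each by edgeR). These 3 had 0 UMIs in the young and 116.5 to 185, 59.4 to 157 and 33.9 to 46.5 CPM in the old libraries. The young SMC-like libraries held 45939 UMIs, where 3 UMIs would be 65.3 CPM. The summed old level of Bag1 was 2.46 times that value, and those of Clpx and Ppid were 0.983 and 0.631 times it. That comparison covers counting error only and not the spread between libraries. In B-like cells the immediate early genes Jun (2.49, adjusted p = 0.574), Egr1 (2.04, adjusted p = 0.584) and Fos (1.80, adjusted p = 0.701) had such p-values, and in airway epithelial-like cells Fosb (-1.93, adjusted p = 0.775) and Nr4a1 (-1.65, adjusted p = 0.775).

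Levels of the inducible HSP70 genes varied widely among libraries of the same age group. Hspa1a in EC-like cells was at 508 and 201 CPM in young replicates 1 and 2 and at 508, 201, 55.0 and 145 CPM in old replicates 1 to 4. Hspa1b in the same cells was at 315 and 111 CPM in young and 280, 230, 34.1 and 89.7 CPM in old. In MΦ-like cells Hspa1a was at 170 and 184 CPM in young and 480, 386, 25.7 and 137 CPM in old, and Hspa1b at 151 and 46.1 CPM and at 291, 464, 11.0 and 47.5 CPM. Old replicate 3 was the lowest library for Hspa1a in 4 of the 6 fitted types and for Hspa8 in 4. Old replicate 1 was the highest for Hspa1a in 4 and for Hspa8 in 5 of the 5 types it entered. Summed over the 10 genes, old replicate 1 was the highest library in those 5 types, and old replicate 3 the lowest in 5 of 6.

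Other values went with these library levels only in part. The 16 immediate early genes, which include Fos and Jun and which dissociation is known to raise, summed to the lowest level in old replicate 3 in 5 of 6 types. In FB-like cells they summed to 4000 CPM there, against 12707 to 18923 CPM in the other 5 libraries. At the high end their sum did not follow, being highest in old replicate 1 in only 1 type. The same sum also separated the age groups in EC-like and airway epithelial-like cells, every old library being below both young ones. It was 26451 to 30472 CPM in young and 5216 to 23047 CPM in old EC-like cells. In airway epithelial-like cells it was 8816 to 11315 and 2887 to 8588 CPM. In the other fitted types the groups overlapped. Of the immediate early genes tested, 15 of 16 in SMC-like, 14 of 14 in B-like and 10 of 16 in MΦ-like cells had higher values in old. In FB-like, EC-like and airway epithelial-like cells 2 of 16 did. Among all genes the share was 51.5% to 69.0% over the types. The free RNA of old replicate 1 held the most of all libraries, at 170 CPM of Hspa1a and 1392 CPM of the 10 genes summed. The others held 23.5 to 55.9 CPM and 393 to 993 CPM. Among them old replicate 3 held 854 CPM of the 10 genes, above young replicates 1 and 2 and old replicate 2 (393, 568 and 535 CPM). Old replicate 3 had the greatest total depth. The part of dissociation, free RNA or depth in the library levels, or in the age comparison, was not tested.

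**Figure D4:**
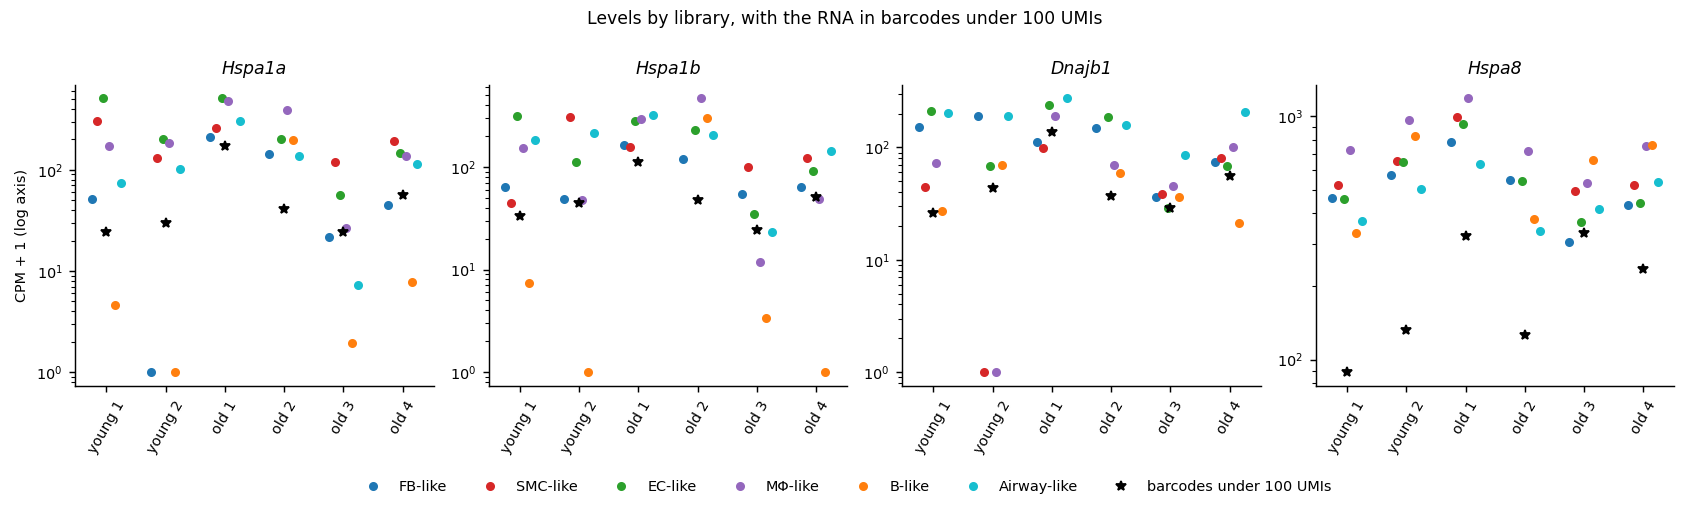
Level of Hspa1a, Hspa1b, Dnajb1 and Hspa8 (CPM + 1, log axis) in each library for 6 cell types (coloured points), with the free RNA in barcodes under 100 UMIs (stars). Old replicate 3 is the lowest library for Hspa1a in 4 of the 6 types and for Hspa1b in 3, and in B-like cells both genes stand high only in old replicate 2.

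B-like cells showed the sharpest library difference. Hspa1a was at 3.63 and 0 CPM in young replicates 1 and 2 and at 195, 0.946 and 6.81 CPM in old replicates 2, 3 and 4, and Hspa1b at 6.36 and 0 CPM and at 301, 2.37 and 0 CPM. Old replicate 2 alone stood high, with 157 UMIs of Hspa1a among 806484, whereas young replicate 1, which shares barcodes with it and held 1207 B-like cells, had 4 among 1100606. After thinning, 4.55% of 1010 B-like cells of old replicate 2 held a UMI of Hspa1a (95% exact interval 3.35% to 6.03%, 5.25% unthinned). In young replicate 1 the share was 0.249% (0.0513% to 0.725%, 0.331% unthinned). Each interval covers only the counting of cells within a library and not the spread between libraries. The free RNA of old replicate 2 held 39.8 CPM of Hspa1a, below its B-like cells, and in the 4 other libraries B-like cells were below free RNA. Neither gene passed the filter for the age test in B-like cells. Hspa8 in the same cells was at 378 CPM in old replicate 2 and 332 to 830 CPM in the others, so it did not stand apart there.

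The genes whose pattern was most like that of each member were sought over 50 library-by-type profiles, by Pearson r of log2(CPM + 1) among 7828 genes; profiles of a library share its depth and free RNA, and r is a description. The closest to Hspa1a was Hspa1b (r = 0.796), then Tob1 (0.704). Hspb1 was most like Cttn (0.895), Adcy6 (0.891) and Amotl1 (0.883). Hspe1 was most like the ribosomal protein genes Rpsa (0.875), Rplp0 (0.825) and Rps7 (0.819), and Hspa8 like Tbca (0.728), Eef1a1 (0.722) and Rpl7a (0.695). Hsph1 was most like Ppp2r1a (0.847), Sdhc (0.835) and Ginm1 (0.784), Dnaja1 like Ptbp1 (0.860), Psenen (0.825) and Supt5 (0.819), and Dnajb1 like Slc25a25 (0.786), Mex3c (0.780) and Slain2 (0.775). Hspd1 was most like Rrp1 (0.859), Psmc3 (0.840) and Zcrb1 (0.838), and Hsp90aa1 like Chka (0.657), Gclc (0.632) and Gpx4-ps2 (0.612). Between members, r was 0.293 for Hspd1 and Hspe1, which share a promoter region, 0.536 for Hspa8 and Hspe1, 0.181 for Hspa1a and Dnajb1 and 0.0443 for Hspa1a and Hsph1. It was 0.565 for Hsph1 and Hspb1, 0.563 for Hspa1b and Hsp90aa1, 0.557 for Hsph1 and Hspd1 and 0.502 for Hspa1a and Dnaja1. Over all pairs of members r ran from -0.148 (Hspb1 and Hspe1) to 0.796 (Hspa1a and Hspa1b).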

How the data were processed

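The deposited files were UMI count matrices per library (10x Genomics 3′ chemistry). According to the study's processing notes the reads were trimmed with cutadapt and aligned and counted with STARsolo on GRCm38.p6; tool versions are not given in the sources used here, and the counts were deposited by the authors without normalization. Rows with a shared symbol were summed. Barcodes were kept as stated in the report, and 5 to 115 likely doublets per library were removed. Cells were clustered (2000 variable genes, 40 components, resolution 1; scanpy 1.11.5) and named from fixed marker lists. Summed counts of at least 10 cells were fitted with edgeR 4.0.16 (TMM, robust quasi-likelihood), with genes kept when over 5% of cells held a UMI in at least 3 libraries, and DESeq2 1.42.0 as an alternative. The study modelled single cells with a mixed model; here libraries were the replicates. The steps were tested on simulated data. All 10 members are named; of related lists, per old-young comparison, genes with an adjusted p under 0.05, or else the 3 largest among those with an unadjusted p under 0.05, and for each member the 3 most alike genes, of which 1 is not reported here. Cct4 and the related genes named in the wall comparison were chosen after their values were seen. The members and lists were chosen with earlier results of these data known.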

Additional observations from a re-analysis of the deposited data

Results flagged for a closer look

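Among 40 groups of 4 old libraries (members in types with 4 old libraries), 4 had a library far from the others by Dixon's criterion, where chance alone flags about 1 in 20. Hspb1 was highest in old replicate 1 in FB-like cells (283 CPM) and in EC-like cells (562 CPM). Hspe1 was highest in old replicate 1 in airway epithelial-like cells (305 CPM). Dnaja1 was lowest in old replicate 3 in airway epithelial-like cells (50.4 CPM), a profile of 21 cells.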

How the results depend on the processing

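Of 108 alternative old-young fits, 1 called a member: within the 3 libraries that share barcodes, an alternative chosen after seeing the data, 1 member was called in airway epithelial-like cells, Hspb1, with a log2 difference of -1.28 (adjusted p = 0.00121); its old arm is 1 library, assumed to vary like the 2 young ones. In 16 of them a member passed the unadjusted rule; among these, without old replicate 1 they were Hspb1 in FB-like (-1.36) and airway epithelial-like cells (-1.44), Hsp90aa1 in SMC-like (1.12) and Hspa1a in EC-like cells (-1.45), and without old replicate 3 Hspa1a in FB-like cells (1.96); without young replicate 1, Dnaja1 in FB-like and Hspd1 in MΦ-like cells were left with 0 young UMIs. Within the cluster that held most young cells, Dnajb1 in B-like (1.73) and Hspa1a in airway epithelial-like cells (1.23) passed the unadjusted rule. After thinning, Hsph1 in airway epithelial-like cells (1.10) passed it. None of these was called by edgeR (adjusted p = 0.999, 0.979 and 0.904). The remaining cases came from fits with no gene filter or within the libraries that share barcodes. A minimum of 20 cells kept the same libraries in every fit. In the wall comparison Hspb1 in SMC-like and MΦ-like cells was called under each of 12 alternatives, with log2 differences of 2.58 to 3.28 and -4.69 to -3.55. Hsph1 in SMC-like cells was called under each of the 11 that could be fitted for it, with differences of 1.29 to 1.69. Members called in FB-like cells numbered 2 after thinning, 0 with no replicate block, and 2 each in the libraries that share barcodes and in the others, both chosen after seeing the data. In SMC-like cells they numbered 1 in the sharing libraries and 5 in the others. In EC-like cells they numbered 2 without TMM factors, 2 after thinning, 1 with no replicate block, 1 with at least 1000 UMIs and 500 genes, 2 in the sharing libraries and 0 in the others. In MΦ-like cells there was 1 with no replicate block. Leaving out each library gave 1 to 2 in FB-like, 2 to 5 in SMC-like, 1 to 3 in EC-like and 2 in MΦ-like cells. These member counts were not set beside the share of all genes called in the same setting. All-gene calls moved widely too, from 401 to 4800 in SMC-like cells. The counts are therefore only a description and not a result about the members. The cause was not tested. Mean levels moved by over 1 SD after thinning for Hsph1 in SMC-like (96.2 CPM), Hsp90aa1 in B-like (206 CPM) and Dnajb1 in airway epithelial-like cells (251 CPM), and with at least 1000 UMIs for Hspb1 in B-like cells (20.1 CPM); 176 of 180 did not. All-gene calls with age ranged from 0 to 20, 128, 9, 20, 115 and 171 over the settings (types in the order of the report), genes at the unadjusted rule from 75 to 1838, 63 to 2224, 72 to 1622, 45 to 2247, 41 to 1853 and 51 to 1602, and wall-type calls from 808 to 3398, 401 to 4800, 944 to 3727 and 1579 to 5543. Few young molecules limit the old-young values in FB-like, SMC-like and EC-like cells, where young libraries held 20929 to 79991 UMIs.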
